A study of Neotoma stephensi and Rattus norvegicus with 6 samples.

Results

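A group of 27 genes had sequencing reads in the foregut of woodrats and not a single read in that of lab rats. The genes were chosen by their counts: 0 reads in each of 3 lab rats and at least 10 reads in each of 3 woodrats. They made up 0.174% of the 15481 mouse genes in the count files. Because the counts themselves chose them, the difference between the species at these genes is a description and was not tested. The results below concern their amounts, their spread among woodrats, what they are known to do, and the counts of related genes outside the group.

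The animals were 3 female Stephens' woodrats (Neotoma stephensi), caught in the wild and fed juniper foliage, and 3 female Sprague Dawley lab rats, purchased and kept on standard chow. The labels call all of them virgins, but the study's methods state this only for the lab rats. The tissue was the fornix ventricularis, the upper part of the stomach, and polyA mRNA was sequenced in a single lane. Species, diet, origin and housing all changed together, so they cannot be told apart. No separate treatment or allele was involved, and the ages of the animals are not given in the sources used here.

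Reads of both species were aligned to the protein-coding transcripts of the mouse, and only reads that could be assigned to 1 gene were counted. A gene's count in this kind of data depends on how much of its mRNA the tissue held, on how closely the animal's own sequence resembles that of the mouse, and on whether a related mouse gene matched the same reads equally well. The counts alone cannot tell these apart. The woodrat libraries held 5717389, 7077011 and 7932637 counted reads and the lab rat libraries 7307287, 5439642 and 6213053. A count of 0 was given a limit of 3 reads in a lab rat library. At this depth, those 3 reads came to between 0.372 and 0.578 CPM, with a mean of 0.482 CPM. CPM are counts-per-million, reads per library size, scaled by the trimmed mean of M values. The limit of 3 reads covers counting error only, for a gene not chosen by its count. Tissue markers differed as well. Over 8 smooth muscle markers the summed level was 113740, 56246 and 35940 CPM in the woodrats and between 9912 and 17739 CPM in the lab rats, 3 of them called higher in woodrats at an FDR of 0.01. Over 10 markers of squamous epithelium it was between 23546 and 65690 CPM in woodrats and between 76417 and 95825 CPM in lab rats, with 1 gene called in each direction. For leukocytes, 9 markers were measured and 5 tested, 3 of them called higher in lab rats. Their sums were 8.01 to 22.1 CPM in woodrats against 35.1 to 71.0 CPM in lab rats. Over all genes tested, 10.3% were called higher in woodrats and 9.71% higher in lab rats. In bulk tissue, fewer cells of a type and less RNA per cell cannot be told apart, and the part of tissue makeup in the results below was not tested.

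The stomach wall of rodents joins a keratinised squamous forestomach to a glandular stomach over layers of smooth muscle and enteric nerves. A list of genes read in 1 species only can draw from any of these layers. It can also hold genes whose mouse sequence is far from that of 1 species, and members of large families, in which reads are easily shared between near copies. The 27 genes were therefore arranged by what their products are known to do, a grouping made after the members were known: 4 signalling and adaptor genes, 6 genes best known from neurons or endocrine cells, 5 secreted or surface proteins, 2 mitochondrial carriers, 3 enzymes, 3 genes of cilia or testis, 2 other named genes and 2 predicted gene models.

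In all, the 27 genes took 5704 woodrat reads, 0.0275% of the reads counted in woodrats. The woodrats contributed 1773, 1873 and 2058 of them. The predicted gene Gm5849 and Mpp1 alone held 40.6% of these reads, and together with Pnck and Calcoco2 61.2%. The other members were scarce: the median member had a mean of 3.91 CPM in woodrats, against 17.7 CPM for the median of all 12603 genes tested, and 4 members lay above that median. CPM are not divided by transcript length, so the order of the members is an order of reads and not of molecules. There were 5 members with at least 10 CPM, 14 members under 5 CPM, and 14 with fewer than 100 reads over the 3 woodrats. Set against 3 reads per lab rat library, the mean levels were at least 3.87-fold (Mettl21c) to at least 133-fold (Gm5849) higher in woodrats, with 13 of the genes at 10-fold or more. These folds divide the mean of the 3 woodrats by the mean lab rat limit of 0.482 CPM. Here and below, "at least" refers to that limit only and does not cover the spread among woodrats. Nor does it allow for the choice of these genes by their lab rat and woodrat counts, so the folds are descriptions. All 27 passed an FDR of 0.01 in the fit across all genes, in which 20% of the genes tested were called in either direction and 10.3% higher in woodrats. That count follows from the choice and nothing is read from it.

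**Figure D1:**
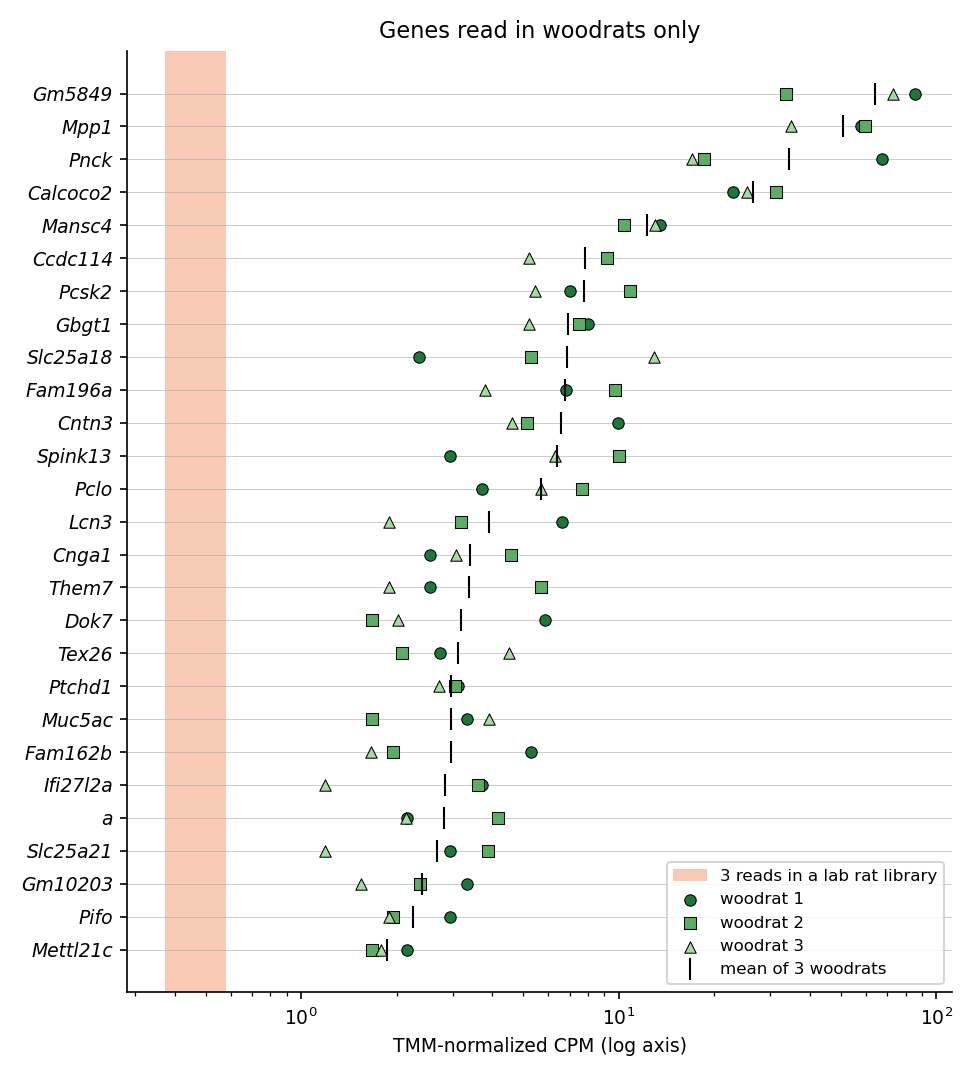
Level of each of the 27 genes in each woodrat, as normalized CPM on a log axis, with a vertical tick at the mean of the 3 woodrats. The shaded band marks what 3 reads would be in a lab rat library (0.372 to 0.578 CPM). All points lie to the right of the band, Gm5849 and Mpp1 at the top and most means below 10 CPM.

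Among the signalling and adaptor genes, Mpp1 encodes a palmitoylated membrane scaffold of the MAGUK family, first known from red blood cells. Its counts in the woodrats were 297, 428 and 295 reads, or 50.8 CPM ± 13.7 (SD, n = 3), at least 105-fold higher than the lab rats. Pnck, a kinase of the calmodulin-dependent group found mostly in brain, had 345, 134 and 143 reads and 34.3 CPM ± 28.7 (SD, n = 3), at least 71.2-fold higher. Most of the Pnck reads came from woodrat 1, whose level was 3.98 times that of the lowest woodrat. It was 67.4 CPM in woodrat 1 against 18.6 and 16.9 CPM in woodrats 2 and 3, so the fold of the mean rests largely on 1 animal. Calcoco2, also called NDP52, is a receptor that links ubiquitin-marked cargo such as invading bacteria to the autophagosome. It had 117, 225 and 213 reads and 26.4 CPM ± 4.32 (SD, n = 3), at least 54.8-fold higher, and its 3 woodrats differed by a factor of 1.37 at most. Dok7, which activates the muscle receptor kinase MuSK at the neuromuscular junction, was far sparser at 30, 12 and 17 reads and 3.18 CPM ± 2.33 (SD, n = 3). Together these 4 genes accounted for 2256 of the 5704 reads.

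The neuronal and endocrine genes were all low, with 679 reads over the 6 of them. Pcsk2, a convertase that cuts prohormones inside secretory granules, had 36, 78 and 46 reads and 7.77 CPM ± 2.76 (SD, n = 3), at least 16.1-fold higher than the lab rats. Fam196a, a protein of inhibitory synapses, had 35, 70 and 32 reads at 6.78 CPM ± 2.96 (SD, n = 3). Woodrat 2 was highest for both. Cntn3, a contactin, which is a cell adhesion protein anchored in the membrane of neurons, had 51, 37 and 39 reads at 6.57 CPM ± 2.95 (SD, n = 3), and woodrat 1 was highest. Pclo, the Piccolo scaffold of the presynaptic active zone, had 19, 55 and 48 reads at 5.68 CPM ± 1.96 (SD, n = 3). Cnga1, the ion channel subunit that cyclic GMP opens in rod photoreceptors, had 13, 33 and 26 reads, and Ptchd1, a patched-domain membrane protein expressed in brain, 16, 22 and 23. The last of these was the steadiest member of all 27, since its highest and lowest woodrat differed by a factor of 1.15.

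Among the secreted and surface proteins, Mansc4, a membrane protein with a MANSC domain, had the most reads, with 69, 75 and 110 reads and 12.3 CPM ± 1.66 (SD, n = 3), at least 25.5-fold higher than the lab rats. Spink13, a Kazal-type protease inhibitor, had 15, 72 and 53 reads at 6.40 CPM ± 3.53 (SD, n = 3), lowest in woodrat 1. Lcn3, a lipocalin, a class of carriers for small lipophilic molecules, had 34, 23 and 16 reads at 3.91 CPM ± 2.45 (SD, n = 3). Muc5ac is the gel-forming mucin of surface mucous cells in the glandular stomach, and a is agouti, the secreted antagonist of the melanocortin receptor that switches hair pigment. For Muc5ac the woodrats had 17, 12 and 33 reads, or 2.96 CPM ± 1.16 (SD, n = 3), and for agouti 11, 30 and 18 reads, or 2.81 CPM ± 1.17 (SD, n = 3).

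The mitochondrial carriers belong to the large Slc25 family, which moves metabolites across the inner membrane. Slc25a18, carrier 2 for glutamate, had 12, 38 and 109 reads at 6.84 CPM ± 5.46 (SD, n = 3), and its woodrats differed by a factor of 5.51, more than for any other member. Slc25a21, the carrier of oxodicarboxylates, had 15, 28 and 10 reads at 2.67 CPM ± 1.37 (SD, n = 3). The 2 carriers thus had their highest values in different animals, woodrat 3 for Slc25a18 and woodrat 2 for Slc25a21.

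Of the enzymes, Gbgt1 builds the Forssman glycolipid by adding a terminal sugar to globoside. It had 41, 54 and 44 reads at 6.90 CPM ± 1.49 (SD, n = 3), at least 14.3-fold higher than the lab rats. Them7, named as a thioesterase superfamily member, had 13, 41 and 16 reads, and Mettl21c, a lysine methyltransferase of muscle, had 11, 12 and 15. Mettl21c had the fewest reads of all members, 1.86 CPM ± 0.253 (SD, n = 3). Among the genes of cilia and testis, Ccdc114, which docks outer dynein arms on the axoneme of motile cilia, had 47, 66 and 44 reads at 7.85 CPM ± 2.29 (SD, n = 3). Pifo, a protein of the primary cilium, had 15, 14 and 16 reads, and Tex26, named for its expression in testis, had 14, 15 and 38. The interferon-inducible Ifi27l2a had 19, 26 and 10 reads and Fam162b 27, 14 and 14. The gene models Gm5849 and Gm10203, whose functions are not stated in the files, had 437, 242 and 617 reads and 17, 17 and 13 reads. Gm5849 (ENSMUSG00000096621.1) had the most reads of all members, 64.0 CPM ± 27.0 (SD, n = 3), and no gene was related to it by symbol.

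The woodrats did not share these reads evenly. After scaling, the summed level of the 27 genes was 346, 260 and 244 CPM in woodrats 1 to 3. The highest woodrat was woodrat 1 for 14 members, woodrat 2 for 10 and woodrat 3 for 3 (11.1%). Over all genes tested, woodrat 3 was highest for 37.9%. That background is not matched, since a limit of 10 reads lies at a higher CPM in woodrat 1 than in woodrat 3. Among genes held to the same limit between 2 and 5 CPM, woodrats 1 to 3 were highest for 7, 4 and 2 members and 477, 325 and 350 others. Between 5 and 10 CPM they were highest for 3, 4 and 1 members and 626, 457 and 571 others. With total counts in place of the scaling, the split of the 27 members was 8, 14 and 5. Woodrat 2 and not woodrat 1 then led most members. Smooth muscle markers, given above, were also highest in woodrat 1, and whether this bears on the members was not tested. The median member varied by a factor of 2.16 between its highest and lowest woodrat. Since scarce genes vary more, this was set beside other genes of similar level. Between 2 and 5 CPM, the median coefficient of variation was 41.5% for 13 members and 28.9% for 1152 other genes. Between 5 and 10 CPM it was 39.6% for 8 members and 28.5% for 1654 others, and at 10 CPM or more 27.0% for 5 members and 21.9% for 7999 others. The last range had no upper limit and was not matched in level. Its members lay between 12.3 and 64.0 CPM, while other genes reached far higher, such as Myh11 at 21280 CPM. In these ranges the members had the larger median, a description without a test. The member between 1 and 2 CPM, Mettl21c, went the other way, at 13.6% against 23.1% for 43 others.

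The edges of the group show how much depends on the limits. Just inside lay Ifi27l2a and Slc25a21, whose lowest woodrat had 10 reads, and then agouti and Mettl21c with 11. Just outside on the woodrat side lay 14 genes without lab rat reads whose lowest woodrat had 8 or 9 reads, among them the neurotrophin Bdnf, the transcription factor Batf2, the amino acid transporter Slc7a13 and the histone gene Hist1h3g. Just outside on the lab rat side lay 24 genes with a single lab rat read, 12 of these reads in lab rat 1, 5 in lab rat 2 and 7 in lab rat 3. Of these, 2 held more woodrat reads than any member. Smtnl1, a smoothelin-like protein of muscle, had 2771, 2226 and 1707 reads in the woodrats, a mean of 351 CPM. Ube2d4, a ubiquitin-conjugating enzyme, had 559, 494 and 386 reads, and Vbp1, a prefoldin subunit, 168, 201 and 213. Hephl1, a ferroxidase, and Cd177, a surface protein of neutrophils, had 10, 53 and 283 and 23, 67 and 231 reads, so that woodrat 3 held most reads of both.

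Of the 10875 genes with at least 10 reads in each woodrat, 0.248% had no lab rat read and so were members. The files held 809 genes with no lab rat read in all. Of the 782 that were not members, 581 had no read in at least 1 woodrat, 164 a lowest woodrat of 1 to 4 reads and 37 a lowest woodrat of 5 to 9. Their abundance was very low, since the median over all 809 was a total of 2 woodrat reads. Every gene listed had at least 1 woodrat read, while 809 had no lab rat read. A mirror group of genes read only in lab rats could therefore not be formed. Its absence follows from which genes are listed and is not read as a difference between the species. One step away from 0 both sides could be counted: 24 genes had 1 lab rat read and at least 10 reads in each woodrat, and 33 genes had 1 woodrat read and at least 10 in each lab rat. With 2 reads the counts were 16 and 27, and with 3 reads 13 and 32.

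**Figure D2:**
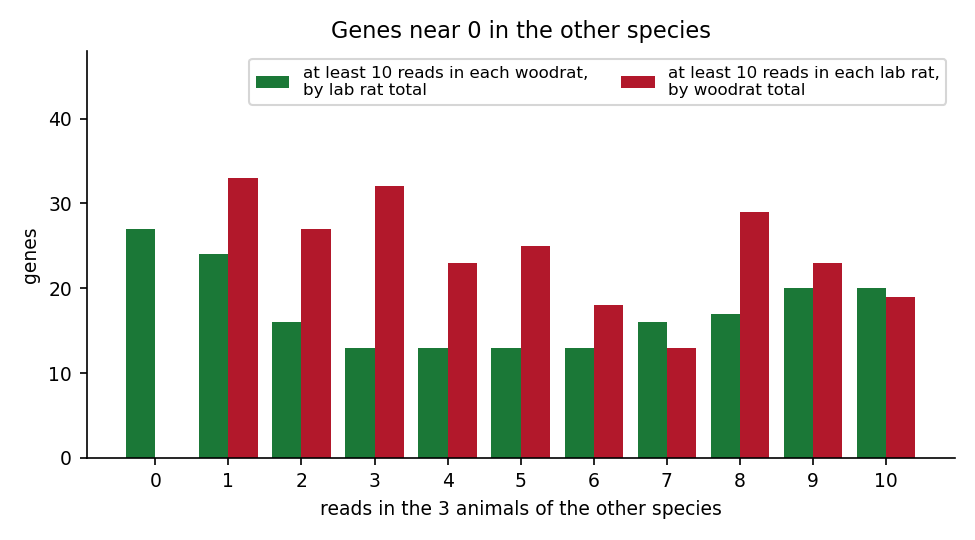
Number of genes (vertical axis) by the total reads they had in the 3 animals of the other species (horizontal axis, 0 to 10). Green bars count genes with at least 10 reads in each woodrat by their lab rat total, red bars genes with at least 10 reads in each lab rat by their woodrat total. The 27 members are the green bar at 0. No red bar could stand there, since every gene listed had a woodrat read.

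Related genes outside the group offered a further comparison. Genes sharing the stem of a member's symbol were taken as its relatives by name, which is not always a relation by sequence. There were 121 of them in 16 families for 17 members, and none for 10 members (Gm5849, Pnck, Ccdc114, Gbgt1, Fam196a, Pclo, Tex26, agouti, Gm10203 and Pifo). Of the 121 relatives, 109 had lab rat reads and 12 had none. Members were left out of the relatives, so those 12 could only be genes with fewer than 10 reads in at least 1 woodrat. That split is thus partly set by the choice. Among the 97 relatives tested, 17 were called at an FDR of 0.01 by edgeR's quasi-likelihood test with Benjamini-Hochberg adjustment, 17.5% against 20% of all genes. Called higher in woodrats were 9 and in lab rats 8, against 10.3% and 9.71% of all genes, and the median log2 fold change of woodrats over lab rats was -0.15, beside 0.03 for all genes. The relatives as a set were thus close to the background in both share and direction. Their count was sensitive to single animals: 7 were called without lab rat 1, without lab rat 2, without lab rat 3 or without woodrat 2. The 6 calls that held whichever animal was left out were Muc2, Cntn2 and Slc25a12, higher in woodrats, and Spink8, Slc25a48 and Slc25a20, higher in lab rats.

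Among the mucins and contactins, the relatives that were called lay on the same side as the member. Of the 2 mucin relatives tested, 1 was called, Muc2. The other, Muc15, had most lab rat reads of the mucins and leaned to lab rats without passing the test. It had 7, 38 and 98 reads against 197, 79 and 25 (log2 fold change -1.19 ± 0.73 SE, adjusted p = 0.224). Muc2, the gel-forming mucin of intestinal goblet cells, had 111, 149 and 238 reads in the woodrats and 1, 1 and 0 in the lab rats. It was 231-fold higher in woodrats by its reads, with an exact 95% counting interval of 63.7 to 1915 (log2 fold change 7.60 ± 0.53 SE, adjusted p = 0.000151, all 3 woodrats above all 3 lab rats). This interval and the counting intervals below pool the reads of the 3 animals of a species. They leave out variation between animals and are too narrow as limits for the species. Muc2 therefore had far more woodrat reads than the member Muc5ac, whose 0 in every lab rat was set by the choice. Cntn2, an axonal contactin, had 46, 117 and 55 reads against 3, 0 and 1 (log2 fold change 5.58 ± 0.72 SE, adjusted p = 0.00112, 3 of 3 woodrats above all lab rats). Cntn1, another contactin of neurons, had 57, 89 and 119 reads against 32, 28 and 14. Its log2 fold change was 1.72 ± 0.33 (SE, adjusted p = 0.00504), a call that was lost without each of the lab rats and without woodrat 2 or woodrat 3, where the highest adjusted p was 0.0237.

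In the mitochondrial carriers and the Kazal inhibitors, relatives were called in the other direction. Slc25a22, carrier 1 for glutamate and by function the counterpart of Slc25a18, had 23, 46 and 92 reads in the woodrats and 216, 220 and 153 in the lab rats, or 7.26 CPM ± 3.29 against 30.9 ± 4.95 (SD, n = 3). Its log2 fold change was -2.07 ± 0.37 (SE, adjusted p = 0.00362, 3 of 3 woodrats below all lab rats). The call was lost without woodrat 2 and without each lab rat, at an adjusted p of up to 0.0177, while the log2 fold change stayed between -2.49 and -1.83. Both glutamate carriers were thus read in woodrats and Slc25a22 alone in lab rats. Of 40 Slc25 relatives tested, 3 were called higher in woodrats and 6 higher in lab rats. Those that held when any animal was left out were the aspartate/glutamate carrier Slc25a12 (475, 626 and 588 reads against 188, 158 and 112, log2 fold change 1.81 ± 0.23 SE, adjusted p = 0.00114), the carnitine/acylcarnitine carrier Slc25a20 (55, 129 and 210 against 724, 604 and 487, -2.40 ± 0.32 SE, adjusted p = 0.00132) and Slc25a48 (0, 4 and 5 against 78, 42 and 37, -4.19 ± 0.62 SE, adjusted p = 0.00184). For these carriers the 3 woodrats lay on 1 side of the 3 lab rats in CPM.

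Spink8 was nearly the mirror image of Spink13. It had 0, 0 and 1 reads in the woodrats and 27, 61 and 53 in the lab rats, which was 152-fold higher in lab rats with a counting interval of 26.8 to 6037 (log2 fold change -6.89 ± 0.88 SE, adjusted p = 0.00110, 3 of 3 woodrats below all lab rats). Spink5, the LEKTI inhibitor of stratified epithelium and the Kazal gene with most reads in both species, had 4072, 8516 and 21020 reads against 18967, 10102 and 6923 and did not pass the test (log2 fold change -0.26 ± 0.47 SE, adjusted p = 0.686). The read counts of the species overlapped. Of the 5 Spink relatives, 2 had lab rat reads. Spink7 was at 0 in all lab rats and had 7, 50 and 5 woodrat reads, so that it missed the limit of 10.

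**Figure D3:**
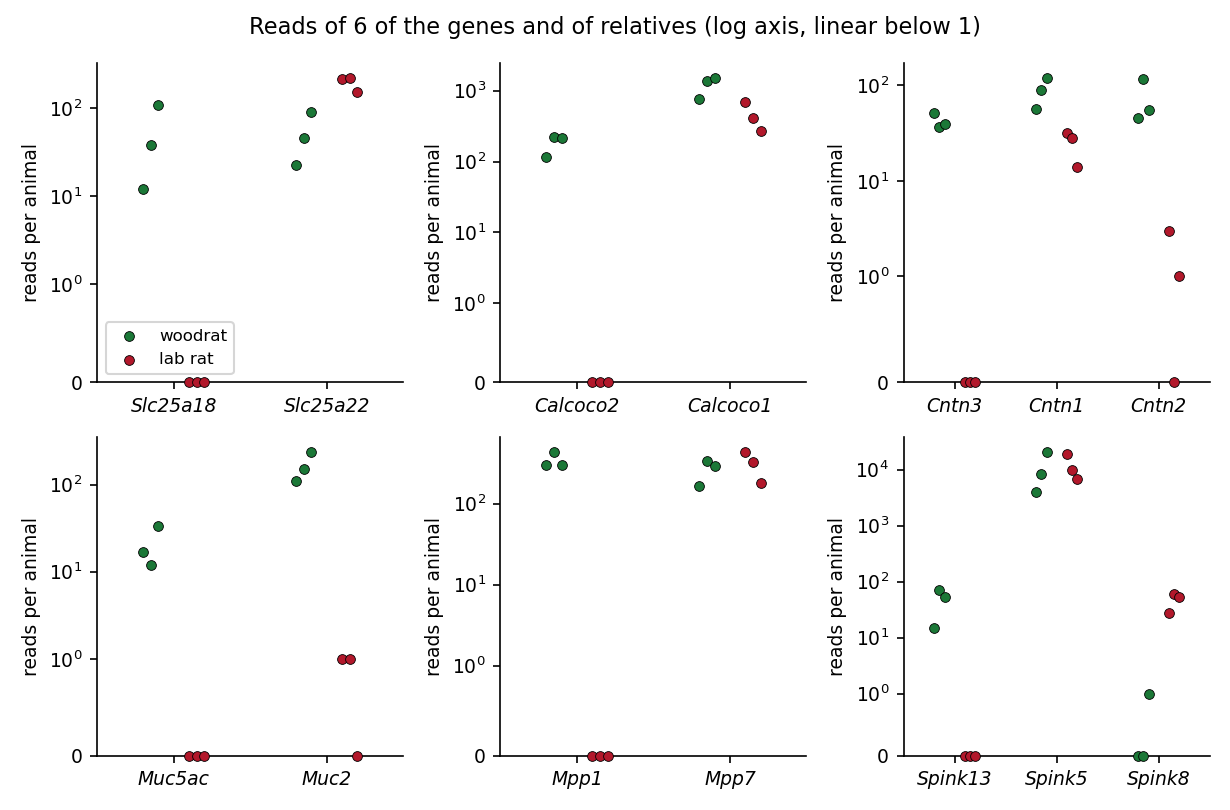
Reads per animal (log axis, linear below 1) for 6 of the genes and for relatives, woodrats in green and lab rats in red. Slc25a18, Calcoco2, Cntn3, Muc5ac, Mpp1 and Spink13 sit at 0 in all lab rats, while Slc25a22 and Spink8 are higher in lab rats, Calcoco1, Cntn1, Cntn2 and Muc2 higher in woodrats, and Mpp7 and Spink5 overlap.

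For Calcoco2, Mpp1, Mansc4 and Dok7 the relatives had read counts of very different size in lab rats. Calcoco1, a paralog of Calcoco2 known as a coactivator and as a receptor for autophagy of the endoplasmic reticulum and Golgi, had 770, 1359 and 1495 reads against 695, 409 and 265, or 172 CPM ± 19.6 against 68.3 ± 17.6 (SD, n = 3). Its log2 fold change was 1.33 ± 0.27 (SE, adjusted p = 0.00582, 3 of 3 woodrats above all lab rats in CPM), and the call was lost without woodrat 2 and without each lab rat, at up to 0.0295. Of the 4 Mpp relatives tested, none was called by edgeR, although 2 (Mpp2 and Mpp5) had an unadjusted p under 0.05 and DESeq2 called 1 of them, Mpp2. Mpp2, Mpp3 and Mpp4 had 7 reads or fewer in every lab rat. Mpp7, the one with most lab rat reads, had 166, 335 and 288 reads against 436, 330 and 179 (log2 fold change -0.34 ± 0.27 SE, adjusted p = 0.347). Mansc1, the single relative of Mansc4, had 46, 92 and 104 reads against 43, 38 and 15, and its log2 fold change of 1.22 had an adjusted p of 0.0302. Dok4, an adaptor of the same family as Dok7, had 142, 118 and 88 reads against 26, 22 and 3 (log2 fold change 2.82, adjusted p = 0.00764). That call was lost without any lab rat, without woodrat 1 and without woodrat 2.

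Among the relatives of Mettl21c, 24 were tested and 1 was called in each direction. Mettl4, a methyltransferase of nucleic acids, had 20, 74 and 56 reads against 9, 5 and 2 (log2 fold change 3.09 ± 0.54 SE, adjusted p = 0.00357), a call lost without each lab rat and without woodrat 2. Mettl7b had 2, 16 and 8 reads against 72, 72 and 73 (-3.23 ± 0.54 SE, adjusted p = 0.00289), a call lost without lab rat 2 or lab rat 3. The next 6 relatives, of 5 further members, were not called. Fam162a, the relative of Fam162b, had 1356, 2121 and 2563 reads against 2426, 1584 and 2403 (log2 fold change -0.25, adjusted p = 0.516). Ifi27l2b, the closest gene to Ifi27l2a by symbol, had 84, 143 and 66 reads against 80, 91 and 98, and its log2 fold change was 0.01 (adjusted p = 0.989). Ifi27 had 132, 125 and 144 reads against 131, 149 and 172 (-0.30, adjusted p = 0.502). Both neighbours by name were therefore read in all 6 animals, with species ranges that overlapped in reads, while Ifi27l2a was read in woodrats only. Them5, a mitochondrial thioesterase, had 155, 877 and 1216 reads against 2212, 2284 and 1864 and did not pass the threshold (-1.77, adjusted p = 0.0245). Pcsk6, a convertase of the Pcsk2 family that acts on constitutively secreted precursors, had 130, 475 and 1262 reads against 280, 193 and 88 (1.53, adjusted p = 0.0645). Lcn2, the siderophore-binding lipocalin of inflamed epithelia, had 17, 70 and 49 reads against 15, 7 and 5 (2.21, adjusted p = 0.0110).

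**Figure D4:**
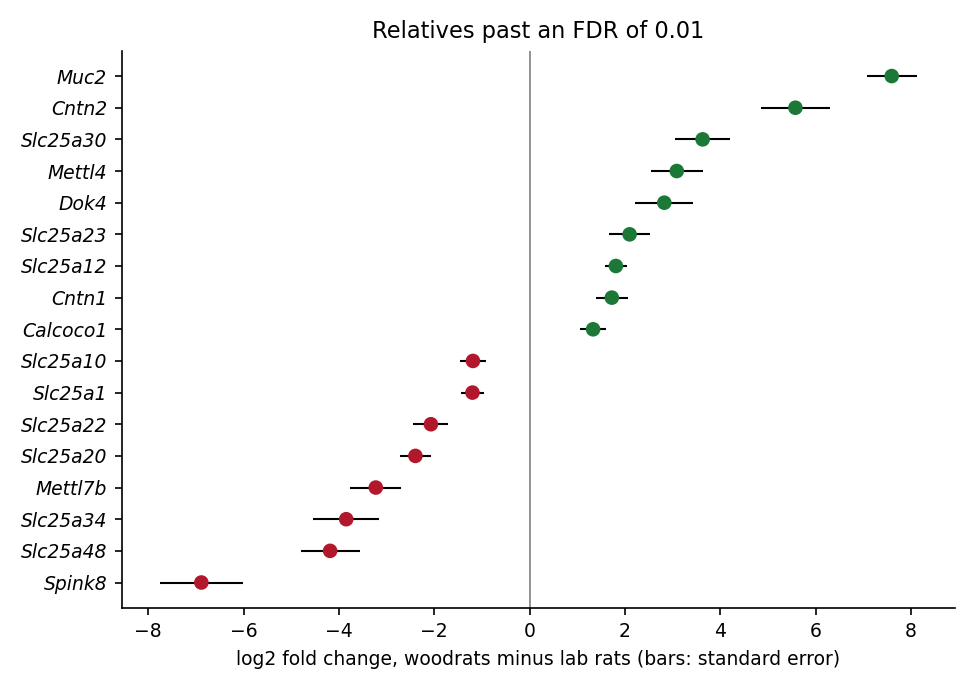
log2 fold change, woodrats over lab rats, of the 17 relatives called at an FDR of 0.01 (points; bars are the standard error). The 9 green points to the right of 0 are higher in woodrats and the 8 red points to the left higher in lab rats, from Muc2 at 7.60 to Spink8 at -6.89.

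Genes that work with the members were read from lists of pathway partners and markers. Beside the calls on these lists stands the share over all genes tested: 20% called, 10.3% higher in woodrats and 9.71% higher in lab rats. The lists are short, and none was tested as a set. For Calcoco2, 5 other selective autophagy receptors were tested and 2 were called, both higher in woodrats: Calcoco1, given above, and Nbr1, which had 684, 967 and 1396 reads against 506, 389 and 223 (log2 fold change 1.35 ± 0.25 SE, adjusted p = 0.00451, 3 of 3 woodrats above all lab rats in CPM). The Nbr1 call was lost without lab rat 1, lab rat 2 or woodrat 2. Sqstm1, or p62, had a log2 fold change of 1.00 and Optn of 1.04, at adjusted p of 0.0213 and 0.0264, and Tax1bp1 one of -0.27 at 0.359. For Gbgt1, 3 other enzymes of the globo series and related glycans were tested and 2 were called higher in woodrats. These were A4galt, which makes the globotriose core (317, 146 and 179 reads against 24, 37 and 38, log2 fold change 2.66 ± 0.55 SE, adjusted p = 0.00641), and B3galnt1, which makes globoside, the acceptor of Gbgt1 (357, 573 and 331 against 153, 120 and 92, 1.73 ± 0.30 SE, adjusted p = 0.00345). Both had more reads in every woodrat than in any lab rat, and both calls were lost without woodrat 2 and without each lab rat. The other enzyme tested, Ggta1, had 93, 209 and 165 reads against 149, 71 and 31. It was not called (log2 fold change 0.87 ± 0.42 SE, adjusted p = 0.129). Abo, on the same list and not tested, had 0, 1 and 2 reads against 4, 2 and 6. The side of Gbgt1 itself was set by the choice of members.

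For Pnck, 5 other kinases of the calmodulin-dependent kinase I group were tested and none was called by edgeR or by DESeq2, with 1, Camkk1, at an unadjusted p under 0.05. Camk1 had 324, 306 and 185 reads against 232, 196 and 254 (log2 fold change 0.21 ± 0.39 SE, adjusted p = 0.698). The 5 scaffolds listed with Mpp1 were the 4 Mpp relatives and Cask, and edgeR called none of them, with the same 2 at an unadjusted p under 0.05 and Mpp2 alone called by DESeq2. For agouti, 2 partners were tested and called in opposite directions. Mgrn1, a ubiquitin ligase needed for agouti to act, had 393, 427 and 458 reads against 220, 200 and 99 (1.26 ± 0.28 SE, adjusted p = 0.00895), and Atrn, the attractin co-receptor, had 45, 74 and 137 against 388, 268 and 191 (-1.86 ± 0.30 SE, adjusted p = 0.00270). The Mgrn1 call was lost without each lab rat, woodrat 1 or woodrat 2, and the Atrn call without lab rat 1, lab rat 2 or woodrat 2.

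The list of neuroendocrine secretion genes held Pcsk2 and Pclo among 13 genes measured. Of the 9 others tested, 3 were called higher in woodrats and 1 higher in lab rats, beside 10.3% and 9.71% of all genes tested. Syt1, the calcium sensor of synaptic vesicles, had 23, 53 and 22 reads against 3, 3 and 1 (log2 fold change 3.67 ± 0.61 SE, adjusted p = 0.00283). Scg5, the 7B2 chaperone that Pcsk2 needs to mature, had 96, 113 and 67 reads against 23, 13 and 16 (2.38 ± 0.42 SE, adjusted p = 0.00346), and Rims1, a partner of Pclo at the active zone, 328, 778 and 423 against 135, 173 and 57 (1.98 ± 0.42 SE, adjusted p = 0.00739). All 3 calls were lost without woodrat 2 and without lab rat 1 or lab rat 3, and each was lost without 1 further animal. Cpe, the carboxypeptidase that trims peptides after Pcsk2 has cut them, moved the other way at 412, 476 and 570 reads against 6562, 4394 and 4396 (-3.48 ± 0.28 SE, adjusted p = 0.000216), a call that held without any 1 animal. The general granule marker Chga had 7, 3 and 4 reads against 6, 7 and 3. Bsn, on the same list and not tested, had 3, 6 and 110 reads against 0, 1 and 0. Of the partners of Pcsk2 on this list, the chaperone was thus called higher in woodrats and the carboxypeptidase higher in lab rats.

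Motile cilium genes were as divided. The list had 19 genes measured, Ccdc114 among them. Of 10 others tested 3 were called in each direction, beside 10.3% of all genes higher in woodrats and 9.71% higher in lab rats. Dnaic1, an intermediate chain of the outer dynein arm that Ccdc114 docks, had 484, 397 and 304 reads against 0, 1 and 1, a ratio of 550 with a counting interval of 152 to 4550 (log2 fold change 8.97 ± 0.69 SE, adjusted p = 0.000212). Cfap74 with 14, 28 and 38 reads against 1, 0 and 0 and Spata17 with 21, 20 and 31 against 0, 1 and 0 were called on the same side. In the opposite direction, Tekt1 had 0, 0 and 1 reads against 20, 10 and 10, and Ttc25, which belongs with Ccdc114 to the docking complex of the dynein arm, had 0, 0 and 1 against 24, 24 and 7. Rsph9 had 3, 2 and 5 against 16, 29 and 24. The calls of Ttc25 (without woodrat 2), Tekt1 (without woodrat 2 or lab rat 1) and Rsph9 (without woodrat 1, woodrat 2, lab rat 2 or lab rat 3) were lost when 1 animal was left out, with log2 fold changes of -4.97, -4.53 and -2.68 or further from 0 throughout. Foxj1, the regulator that defines motile ciliated cells, was at 0, 1 and 4 reads against 0, 1 and 0, so that the defining marker was close to absent in both species.

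Muc5ac was also 1 of 15 markers fixed for gastric glands. Of the 11 in the files, 8 were at 0 in all lab rats, Muc5ac among them, and apart from Muc5ac 1 was tested. That gene, Atp4a, the proton pump of parietal cells, had 31, 41 and 48 reads against 67, 59 and 35 (log2 fold change -0.51, adjusted p = 0.216). The summed level of the 11 markers was between 7.91 and 13.7 CPM in woodrats and between 7.90 and 10.9 CPM in lab rats, but Atp4a made up most of the lab rat sums, and the woodrat sums included Muc5ac. The other 9 markers summed to 4.30, 0.555 and 0.711 CPM in the woodrats and to 1.86, 1.16 and 1.16 CPM in the lab rats. In the woodrats, Gkn2 had 9, 0 and 1 reads, Chia1 7, 0 and 0, Gast 3, 2 and 3, Pgc 1, 1 and 0, and Gkn1, Tff2, Ghrl and the mucin Muc6 a single read each. Ctse, the cathepsin E of surface mucous cells, had 1, 0 and 0 reads in the woodrats and 15, 6 and 6 in the lab rats. Apart from Ctse and Atp4a, the only one of these markers with a lab rat read was Chia1, with 0, 1 and 0. The part of gland cells in the Muc5ac reads was not tested. The 3 gel-forming mucins in the files had a summed level of 25.0, 22.5 and 32.1 CPM in the woodrats and of 0.124, 0.165 and 0 CPM in the lab rats. These sums include Muc5ac, whose side was set by the choice of members. Muc2 alone had 21.7, 20.7 and 28.2 CPM in the woodrats and 0.124, 0.165 and 0 CPM in the lab rats.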

How the data were processed

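Foregut mRNA of 3 woodrats and 3 lab rats was measured by stranded polyA RNA-Seq. As the methods describe, the authors trimmed reads (Trimmomatic), merged overlapping pairs, aligned reads of both species to mouse coding transcripts (GENCODE release M7) with cross_match, and collapsed the alignments to genes. The labels name the build mm9. The deposited values are raw counts of reads per mouse gene; genes with many multiple alignments had been excluded by the authors. No coordinates or sequences are given, since no genome was used here.

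Groups came from the sample labels. Files were merged on the mouse gene identifier (Python 3.11.15, pandas 2.3.3). The 12603 genes that reached 1 CPM in 3 or more animals were fitted in R 4.3.3 with edgeR 4.0.16: TMM scaling, the quasi-likelihood F-test as before version 4, species as the only term, Benjamini-Hochberg adjustment and a call at an FDR below 0.01. The SE was computed as the absolute log2 fold change over the root of F. Intervals of ratios were exact binomial ones on reads pooled within each species, so they cover counting error and not variation between animals. DESeq2 1.42.0 was an alternative, as were other filters, scalings, read limits and leaving out each animal. The scripts were tested on simulated data.

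The 27 members, the relatives, lists and role groups were chosen with earlier results of these data known. The genes described in full were the 15 with the highest mean CPM, those on a list and those at the edges; for each, relatives with lab rat reads, called relatives and list genes were named. Other members and relatives were named after their values were seen. P-values set the difference between the species against the spread between these animals, a spread estimated partly from other genes. They do not separate species from diet, origin or housing. The animals of a species differed by more than sampling noise, so none was counted as a repeat. Totals ran from 5439642 to 7932637 counts, and a floor of 3 reads was used for 0 counts.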

Additional observations from a re-analysis of the deposited data

How the results depend on the processing

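The number of genes read in woodrats only, 27, followed the limits. It was 64 at 5 reads in each woodrat, 10 at 20 reads, 5 at 50 reads, and 17 at 2 CPM in place of 10 reads. It was 51 with up to 1 lab rat read in all, 80 with up to 3, and 74 at 30 reads over the woodrats together, an alternative chosen after seeing the data. Leaving out 1 animal gave 34 to 47 genes, with 47 without woodrat 1 and 44 without lab rat 1, each count being at least 27 because a condition was removed. The median level and the median ratio between woodrats moved by less than the spread under other scalings. Over all genes, 2516 were called by edgeR, 3916 by DESeq2, 5026 at an FDR below 0.05, and 898 to 2626 with 1 animal left out. Of the relatives, 17 were called, 33 by DESeq2, 44 at an FDR below 0.05 and 7 to 17 with 1 animal left out; by total counts, 13 were called, 5 higher in woodrats and 8 in lab rats, against 9 and 8. Without the Slc25 family, chosen after seeing the data, 8 of 57 tested were called, and without the Ifi, Muc and Mettl names 14 of 64. The replicate numbers did not pair the animals (correlations of same-numbered animals -0.289, -0.0881 and -0.279). With them as a replicate block, 716 genes and 6 relatives were called, and 10 of the 32 called genes of the relatives and lists kept their call. No direction reversed. The comparison by closest protein was not run, since no protein table was used here.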
